A study of Homo sapiens with 9 samples.

Results

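The HOX genes are the members described here. They were taken as 38 listed genes of the HOXA, HOXB, HOXC and HOXD clusters, out of 20037 protein-coding genes in the RefSeq GRCh38.p14 table. HOXA and HOXB contributed 10 genes each, and HOXC and HOXD contributed 9 each. A gene was counted as carrying a peak when a deposited peak overlapped its RefSeq body or the 10 kb to either side by 1 bp or more. All samples came from RPMI-8402, an established human cell line of T-cell acute lymphoblastic leukaemia, abbreviated T-ALL. ChIP-seq, the sequencing of DNA recovered with an antibody from crosslinked chromatin, was run with an antibody against NKX2-1 (TTF1), a homeodomain transcription factor. It was run on 4 NKX2-1 knockout (KO) clones, C12, C15, S04 and S36, and on 4 wild-type (WT) clones, WT10, WT13, WT28 and WT30. A single further library recovered H3K27ac, the acetylation of lysine 27 on histone H3 that active enhancers and promoters carry. The genotype field of the H3K27ac library and of the C12, C15, S04 and S36 libraries reads NKX2-1, and the design text names the last 4 as knockout clones. Each clone is represented by 1 library, so the spread between libraries mixes clonal and technical differences. The H3K27ac library has no replicate and no named clone, so acetylation at HOX genes could not be compared between KO and WT.

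HOX genes encode homeodomain transcription factors that assign position along the body axis. The genes of a cluster lie side by side in the order of their paralog number and are transcribed in the same direction. In blood, genes of the HOXA and HOXB clusters are known for their activity in stem and progenitor cells, which declines as cells mature. HOXA9 and HOXA10 are overexpressed in a class of T-ALL that carries rearrangements of KMT2A, MLLT10 or NUP214. HOXC and HOXD genes are known mainly for limb, skin and trunk patterning.

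The KO libraries held 810 to 934 peaks and the WT libraries 742 to 1144 peaks, and the H3K27ac library held 9857, counting chromosomes 1 to 22 with X and Y. Read depth is unknown for every library, so a gene without a peak is a gene at which none was called, not one shown to lack the mark. At NKX2-1 itself (chromosome 14, 36516397 to 36520232) no NKX2-1 antibody library had a peak within 10 kb, and peak lists do not show a deletion. The H3K27ac library had 4 peaks there. Of 8 T-cell markers, 6 had an H3K27ac peak in the body or within 10 kb, with the strongest over CD3E (11.8-fold). CD2 and CD7 had none. B-cell markers had 1 of 6 (CD79A), erythroid markers 0 of 4 and myeloid markers 4 of 6, where the peak lay in the gene body only for SPI1. Over all protein-coding genes the share in this window was 29.0%, which lies inside the 95% Wilson intervals of the B-cell (3.01 to 56.4%) and erythroid (0 to 49.0%) lists. The intervals of the T-cell (40.9 to 92.9%) and myeloid (30.0 to 90.3%) lists both lie above it. These window counts therefore do not set the T-cell markers apart from the myeloid ones.

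Acetylation was called in 2 of the 4 HOX clusters. The 4 cluster spans, each measured from the first to the last listed gene, held 6 H3K27ac peaks in all. HOXB (chromosome 17, 48528526 to 48728750) held 5, HOXA (chromosome 7, 27100354 to 27200091) held 1, and HOXC (chromosome 12, 53938831 to 54056030) and HOXD (chromosome 2, 176087487 to 176190907) held 0. The peaks covered 2.48 kb of the HOXB span (1.24%) and 0.399 kb of the HOXA span (0.400%). Over their spans, which include sequence between genes, HOXB had 2.50 peaks per 100 kb and HOXA 1.00. Over the merged bodies of the listed genes alone, HOXB had 2 peaks (2.70 per 100 kb) and HOXA had 1 (1.37 per 100 kb), beside 0.560 per 100 kb over the merged bodies of all protein-coding genes. The other 3 HOXB peaks lay outside every listed body. The merged bodies of the listed HOXC genes and those of HOXD held 0 peaks. Densities from 1 or 2 peaks are imprecise, and the part of body length in them was not tested.

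**Figure D1:**
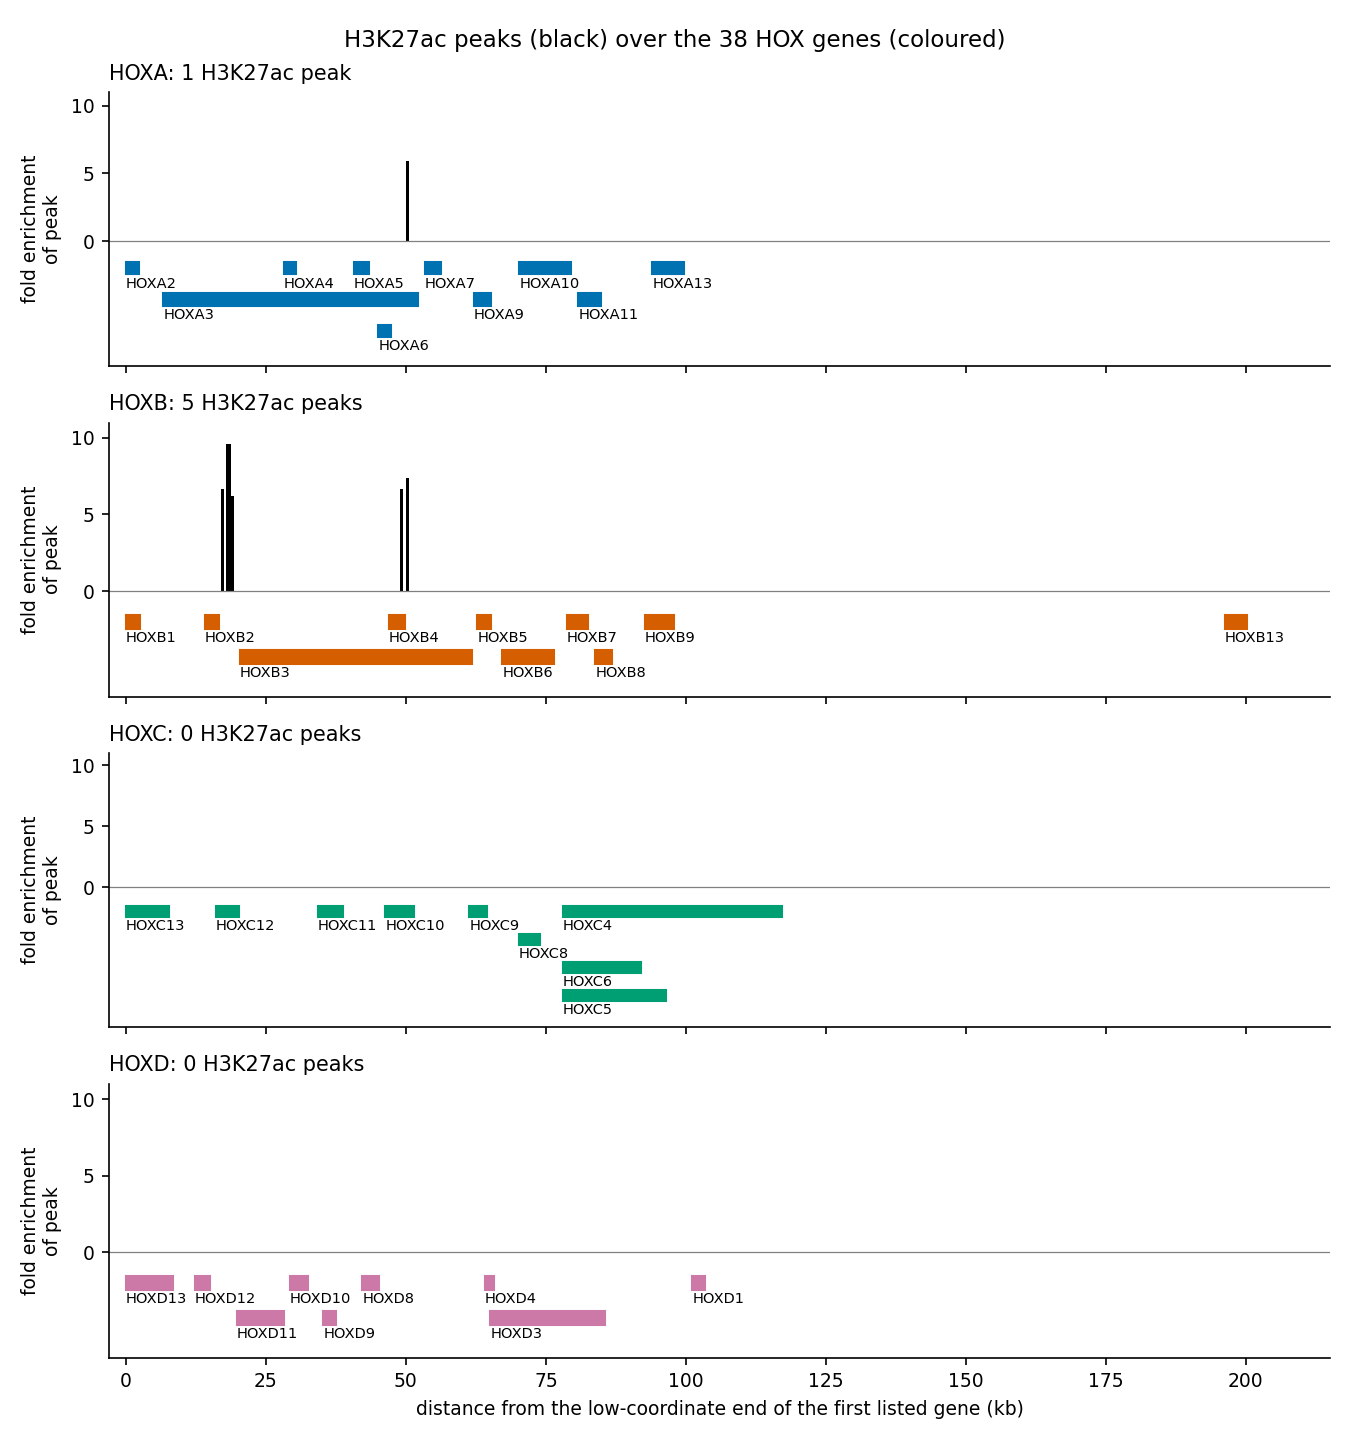
Map of the 4 HOX clusters, with distance from the low-coordinate end of the first listed gene on the horizontal axis (kb) and the deposited fold enrichment of each H3K27ac peak as the height of the black bars, which are widened to stay visible. Coloured boxes are the gene bodies in RefSeq. The 5 HOXB peaks form a group between HOXB2 and HOXB3 and a pair at HOXB4, the HOXA peak lies between HOXA6 and HOXA7, and HOXC and HOXD are empty.

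Within 10 kb, 7 of the 38 genes had an H3K27ac peak (18.4%, 95% Wilson interval over genes 9.22 to 33.4), beside 29.0% of all protein-coding genes. The interval includes 29.0%. The 7 genes were HOXA3, HOXA5, HOXA6, HOXA7, HOXB2, HOXB3 and HOXB4. In the gene body alone there were 3 of 38 (7.89%, 2.72 to 20.8), beside 21.2% of all protein-coding genes. The 3 were HOXA3, HOXB3 and HOXB4. HOX bodies are short, with a median of 3.79 kb against 24.1 kb over all genes. The part of body length in these shares was not tested. The genes of a cluster share peaks, so the 7 genes are not independent: 1 peak accounts for the 4 HOXA genes, and 5 peaks account for the 3 HOXB genes. The intervals treat genes as separate draws and are too narrow for that reason. With 20 kb to each side the count was 13 of 38 (34.2%, beside 33.8% of all genes), and among peaks with a −log10 q of 5 or more it was 3 of 38 (7.89%, beside 17.3%).

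The strongest acetylation lay between HOXB2 and HOXB3. HOXB2 (chromosome 17, 48542655 to 48545109) takes part in hindbrain patterning, and HOXB3 (chromosome 17, 48548870 to 48590241) is active with HOXB4 in blood progenitors. The strongest HOX peak (chromosome 17, 48546368 to 48547224) had a deposited enrichment of 9.61-fold and a −log10 q of 10.7. Its enrichment exceeded that of 90.1% of all H3K27ac peaks, and its length of 857 bp exceeded 84.5% of them. A peak on either side, at 48545610 to 48545987 (6.68-fold) and 48547300 to 48547728 (6.19-fold), lay 380 and 75 bp from it. The enrichment values are the authors' own. HOXB genes lie on the minus strand, so the high-coordinate end of HOXB2 is its start. The 3 summits lay 764, 1676 and 2526 bp upstream of that start and 1142 to 2883 bp separated the peaks from the low-coordinate end of HOXB3. The RefSeq body of the long non-coding RNA HOXB-AS1 (48544351 to 48551241) spans all 3 peaks, and peaks carry no strand, so they cannot be assigned to one of these genes.

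HOXB4 carried a pair of peaks around its start. HOXB4 (chromosome 17, 48575507 to 48578350) encodes a factor known for expanding blood stem cells when overexpressed. One peak (48577524 to 48577984, 6.68-fold) overlapped the gene, with its summit inside the gene (−564 bp from the start, counted upstream). The other (48578663 to 48579020, 7.41-fold, −log10 q 7.73) lay 313 bp beyond the gene, with its summit 491 bp upstream of the start. Both also fall in the long annotated body of HOXB3, and they are the 2 peaks counted for HOXB3 itself. A gap of 29795 bp separated this pair from the HOXB2 to HOXB3 group.

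The remaining HOXB genes had no peak in their windows. HOXB1, a hindbrain gene, was 14599 bp from the nearest peak. HOXB5 was 12237 bp away and HOXB6 16731 bp away. HOXB7, HOXB8 and HOXB9 were 28212 to 42136 bp away. HOXB13, a gene of prostate and tail-end development, lay 145743 bp from the nearest peak. The HOXB peaks thus lay in 2 short groups, upstream of HOXB2 and around the HOXB4 start.

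HOXA had a single peak of ordinary strength. It lay between HOXA6 and HOXA7 (chromosome 7, 27150403 to 27150801), with a 5.94-fold enrichment and a −log10 q of 4.92. Its enrichment exceeded that of 39.5% of all H3K27ac peaks. The peak overlaps the RefSeq body of HOXA3 (27107010 to 27152583), a gene known in mouse for thymus and parathyroid development. It does so because some HOXA3 transcripts start far upstream, between HOXA6 and HOXA7. It also lies in the body of the long non-coding RNA HOXA-AS3 (27140364 to 27155928). HOXA6 (27145396 to 27147774) was 2629 bp away and HOXA7 (27153716 to 27156675), raised with HOXA9 in KMT2A-rearranged leukaemia, 2915 bp. HOXA5 (27141052 to 27143681), a lung and myeloid regulator, was the farthest member inside the window at 6722 bp. HOXA9 (27162438 to 27165537) was the nearest member outside it at 11637 bp. HOXA10, HOXA11, HOXA13 and HOXA4 lay 19646 to 43563 bp away and HOXA2 47720 bp. No peak was called over HOXA9 or HOXA10, the HOXA genes best known in leukaemia.

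HOXC and HOXD had no H3K27ac peak within 50 kb of any gene, beside 44.8% of all protein-coding genes with one at that width. The genes of a cluster share much of a window this wide, so each cluster amounts to little more than a single locus. The 9 HOXC genes lay 223.6 to 297.1 kb from the nearest peak, and the 9 HOXD genes 78.9 to 173.8 kb. HOXC4 was the closest of HOXC and HOXD1 the closest of HOXD. HOXC13, a hair and nail gene, was 262.8 kb away, and HOXD13, a digit-patterning gene, 173.8 kb. Median distances were 266.9 kb in HOXC and 144.8 kb in HOXD, against 15.6 kb in HOXA and 15.7 kb in HOXB.

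**Figure D2:**
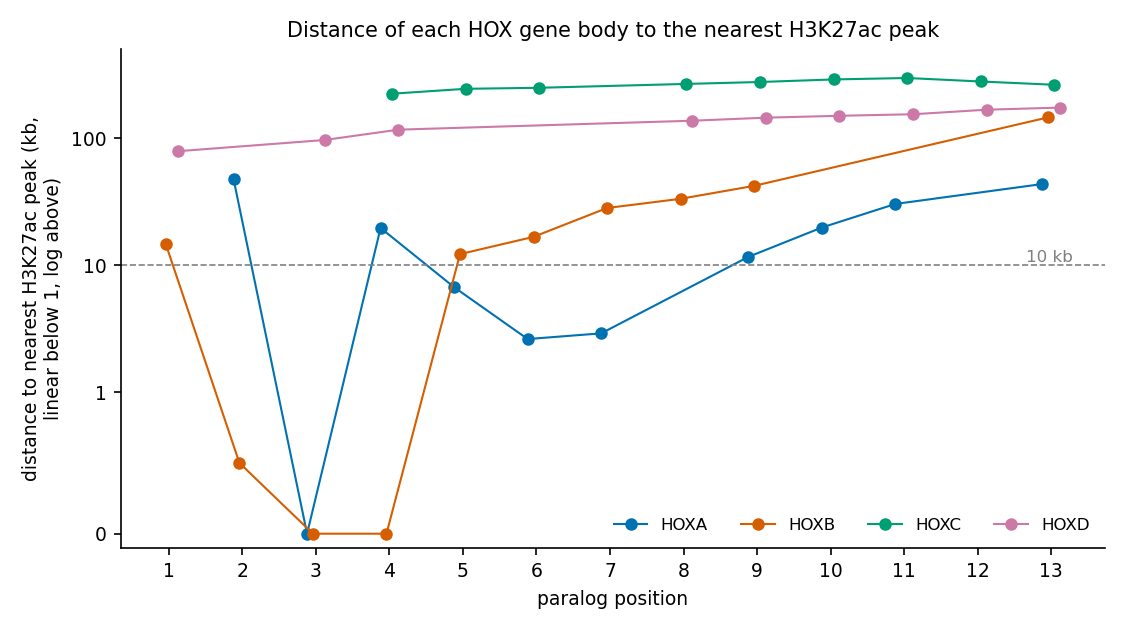
Distance from each HOX gene body to the nearest H3K27ac peak (vertical axis, kb, linear below 1 kb and logarithmic above) by paralog position; each point is a gene, and lines join the genes of a cluster. HOXA3, HOXB3 and HOXB4 sit at 0, and every HOXC and HOXD gene sits at 78.9 kb or more.

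By paralog position, the genes with a peak within 10 kb were 3 of the 7 genes at positions 1 to 3, 4 of the 15 at positions 4 to 8, and 0 of the 16 at positions 9 to 13. In HOXA and HOXB alone, 0 of the 6 genes at positions 9 to 13 had one. The share over all protein-coding genes in this window was 29.0%, and the genes of a cluster share peaks, so no order by position is read from these counts. HOXC holds no gene at positions 1 to 3 and 5 of the 16 at positions 9 to 13, so position and cluster cannot be told apart in the totals. HOXA3 and HOXB3, both at position 3, had a peak in the body. They have the longest annotated bodies of their clusters, at 45574 and 41372 bp. The peaks in the HOXB3 body are the pair at HOXB4, a gene at position 4 that also had a peak in its body.

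**Figure D3:**
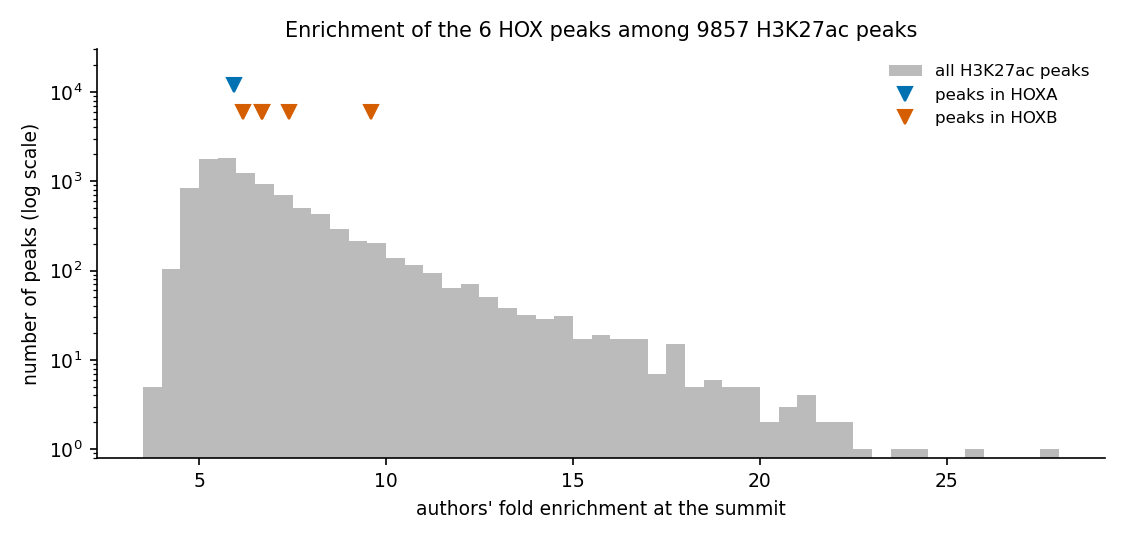
Distribution of the deposited fold enrichment over all 9857 H3K27ac peaks (grey bars, number of peaks on a log axis), with triangles at the enrichment of the HOX peaks; the height of the triangles carries no value. The HOXA peak is at 5.94-fold, below the median of 6.19-fold, and the HOXB peaks run from 6.19- to 9.61-fold, where the 2 peaks at 6.68-fold share a triangle.

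When peaks 12 kb or less apart were joined, the H3K27ac library gave 5164 regions, with a median of 1 peak and a maximum of 33. The HOXB2 to HOXB3 region joined 3 peaks holding 1664 bp of peak sequence, more than 85.1% of regions and rank 767. The HOXB4 region joined 2 peaks holding 819 bp, more than 62.5% of regions. The HOXA peak stood alone. HOXB thus held short acetylated regions and no long domain of many peaks.

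The start-site windows at hand for HOX genes lay outside the called peaks. RefSeq windows from 250 bases before to 50 after a start were at hand for 20 of the 38 genes, 26 windows in all, of which HOXA3 had 7. None of the 26 overlapped an H3K27ac peak, beside 7.19% of 34943 windows over all genes. At a share of 7.19%, few of 26 windows would overlap a peak, so this count lies near the background. It does not set the HOX windows apart from those of other genes. The 20 genes include 8 of HOXD, a cluster without a called peak. They include 1 of HOXB, HOXB1, so the windows do not cover HOXB2, HOXB3 or HOXB4. The HOXA3 start nearest to the HOXA peak is shown first because the peak summit lay 380 bp downstream of it. The peak ends at 27150801 and this window begins at 27150901, so the miss depends on the window width. Other widths were not tested. HOXA9 is shown as the leukaemia gene just outside the 10 kb limit. The HOXC4 window is shown as the one shared with HOXC5 and with no H3K27ac peak called near it. Sequences are from RefSeq on GRCh38.p14, given 5′ to 3′ on the gene's strand, and capitals mark matches to the motifs searched. HOXA3 is chr7:27150901-27151200 (minus strand), HOXA9 is chr7:27165488-27165787 (minus strand) and HOXC4 is chr12:54016638-54016937 (plus strand).
HOXA3: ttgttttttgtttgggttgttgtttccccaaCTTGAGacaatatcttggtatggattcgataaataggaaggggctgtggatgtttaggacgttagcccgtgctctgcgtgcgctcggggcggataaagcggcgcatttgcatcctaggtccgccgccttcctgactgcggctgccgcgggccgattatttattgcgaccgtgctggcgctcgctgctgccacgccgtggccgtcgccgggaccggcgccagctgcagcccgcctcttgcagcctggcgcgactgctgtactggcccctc
HOXA9: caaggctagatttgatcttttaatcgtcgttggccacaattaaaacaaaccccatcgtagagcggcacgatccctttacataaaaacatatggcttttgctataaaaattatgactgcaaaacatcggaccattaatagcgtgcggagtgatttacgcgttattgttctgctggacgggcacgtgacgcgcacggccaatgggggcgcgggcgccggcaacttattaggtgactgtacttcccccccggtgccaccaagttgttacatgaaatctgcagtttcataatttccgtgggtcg
HOXC4: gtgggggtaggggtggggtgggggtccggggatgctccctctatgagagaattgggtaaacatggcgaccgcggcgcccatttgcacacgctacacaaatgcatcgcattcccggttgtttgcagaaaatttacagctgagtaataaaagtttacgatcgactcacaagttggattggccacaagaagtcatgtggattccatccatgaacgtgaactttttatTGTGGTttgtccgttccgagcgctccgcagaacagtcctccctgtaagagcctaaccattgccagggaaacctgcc

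The capitals in the HOXA3 window are CTTGAG, the reverse complement of CTCAAG, the core of the NKX2-1 consensus. Those in the HOXC4 window are TGTGGT, a RUNX site. The HOXA9 window held no match. On both strands, CTCAAG was found in 2 of the 26 HOX windows (7.69%), in HOXA3 and HOXD10, beside 12.4% of all windows. The longer form CACTCAAG, which contains CTCAAG, was in 0 of 26, beside 0.724%. TGTGGT was in 3 of 26 (11.5%), in HOXC4, in HOXD10 and in a HOXA3 window other than the one shown, beside 13.1%, and the PBX-HOX motif TGATTNAT in 2 of 26 (7.69%), in HOXA2 and HOXD11, beside 2.82%. A match is a run of letters and not a bound site. HOX windows had a median GC content of 58.0%, beside 58.7% over all windows, and a median of 22.5 CpG dinucleotides, beside 14. 

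The clusters also hold microRNAs. RefSeq places 8 microRNA genes in the 4 spans, and no H3K27ac peak overlapped any of them. The nearest was MIR10A (chromosome 17, 48579838 to 48579947), which lies beyond the HOXB4 start, 818 bp from the stronger HOXB4 peak. MIR196B in HOXA was 18679 bp from a peak, MIR196A1 in HOXB 53470 bp, MIR10B in HOXD 119363 bp and MIR196A2 in HOXC 287819 bp. Mature sequences are shown for these families because one gene of each family lies in or near an acetylated cluster and another in a cluster without a peak; capitals mark the seed, bases 2 to 8. The coordinates are those of RefSeq GRCh38.p14, with the genes of HOXA and HOXB on the minus strand and those of HOXC and HOXD on the plus strand.
hsa-miR-10a-5p (MIR10A, chr17:48579904-48579926): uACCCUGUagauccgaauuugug
hsa-miR-10a-3p (MIR10A, chr17:48579864-48579885): cAAAUUCGuaucuaggggaaua
hsa-miR-10b-3p (MIR10B, chr2:176150368-176150389): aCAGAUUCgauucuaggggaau
hsa-miR-196b-5p (MIR196B, chr7:27169528-27169549): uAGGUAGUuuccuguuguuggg
hsa-miR-196a-5p (MIR196A1, chr17:48632532-48632553; MIR196A2, chr12:53991762-53991783): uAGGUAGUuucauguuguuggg

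The miR-196a-5p and miR-196b-5p sequences share the seed AGGUAGU, and MIR196A1 and MIR196A2 give the same mature 5p sequence. Of 23 long non-coding RNA genes in the spans, 2 overlapped an H3K27ac peak, HOXA-AS3 with 1 and HOXB-AS1 with 3. No share over all long non-coding RNA or microRNA genes was computed. This count and the 0 of 8 microRNA genes therefore cannot be called high or low. HOXBLINC, a non-coding RNA beyond HOXB4, was 1297 bp from a peak. HOTAIR in HOXC was 286.3 kb away. The non-coding genes were examined after the peaks had been seen.

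Genes that act with or on the HOX clusters were counted in the same way, beside 29.0% of all protein-coding genes with a peak within 10 kb and 21.2% with one in the body. Of 11 HOX cofactors of the PBX, MEIS, PKNOX and TGIF families, which bind DNA beside HOX proteins, 3 had a peak within 10 kb (27.3%), each in the gene body, close to the share over all genes. They were PKNOX1 (7.18-fold), TGIF2 (5.54-fold) and PBX2 (5.31-fold), while MEIS1 and PBX3, the partners of HOXA9 in leukaemia, had none. Of 23 genes encoding regulators of HOX chromatin and their fusion partners, 17 had a peak (73.9%) and 15 had one in the body. The strongest were CTCF (16.2-fold), a boundary factor, ASXL1 (12.05-fold) and MLLT1 (9.52-fold), a partner of KMT2A. KMT2A itself, which keeps HOX genes active, had 8.66-fold enrichment. The Polycomb subunit genes EZH2, SUZ12 and EED, whose products keep HOX genes silent, had 7.90-, 6.16- and 5.94-fold. The Polycomb genes EZH1, BMI1 and RNF2 of the same list had no peak, and neither had MEN1, MLLT3 and KAT6A. Of 64 other homeobox genes, 9 had a peak (14.1%) and 4 had one in the body. HHEX, a blood and endothelial factor, had 17.7-fold enrichment, IRX3 7.90-fold and IRX5 5.94-fold. These lists differ in body length, with medians of 59.4 kb for cofactors, 76.9 kb for regulators and 7.96 kb for other homeobox genes.

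**Figure D4:**
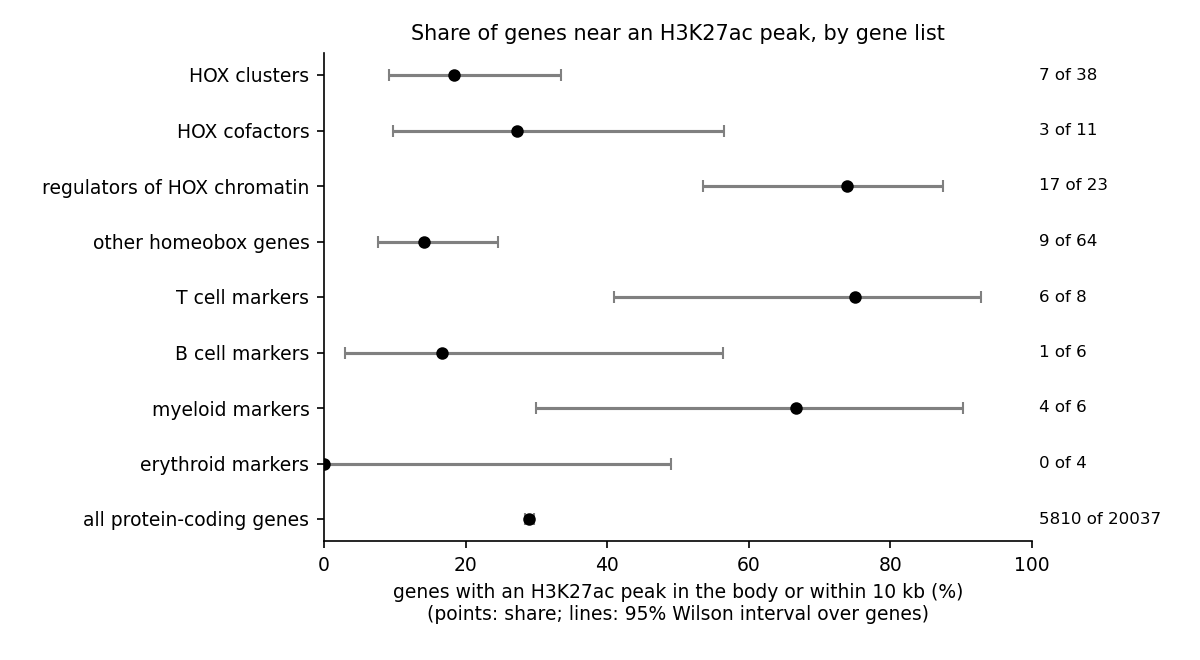
Share of genes with an H3K27ac peak in the body or within 10 kb, by gene list (points, with lines for the 95% Wilson interval over genes), with counts at the right. The HOX clusters (18.4%) and the other homeobox genes (14.1%) lie below all protein-coding genes (29.0%), and the regulators of HOX chromatin (73.9%) lie above. The interval of the HOX clusters (9.22 to 33.4%) includes 29.0%.

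No NKX2-1 antibody peak was called near a HOX gene. In each of the 4 KO libraries and each of the 4 WT libraries, 0 of the 38 genes had a peak in the body or within 10 kb, beside 2.59% of all protein-coding genes with a peak in any of the 8 libraries. The share over all genes ran from 0.344% to 1.52% in KO libraries and from 0.245% to 1.31% in WT libraries, so the background near genes was low. With 100 kb to each side the count was also 0 of 38 over the 8 libraries, beside 9.02% of all genes. At that width the genes of a cluster share most of their window, so the 38 genes amount to little more than 4 loci. The authors' combined list of 209 peaks had 0 of 38 HOX genes within 10 kb, beside 0.744% of all genes. Their WT-only list, with 496 regions on these chromosomes, had 0 of 38, beside 1.03%. With 0 in all libraries there was no difference between KO and WT to test. A share of 2.59% is about 1 gene of 38, so a count of 0 lies near the background.

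The nearest NKX2-1 antibody peak to HOXB was closer in WT than in KO clones. It lay 4377 kb away in C12, C15 and S04 and 2587 kb away in S36, against 613 kb in WT10, WT13, WT28 and WT30. The groups do not overlap. In the WT libraries it was a peak within ZNF652, a zinc-finger gene (chromosome 17, 49342138 to 49342518 in WT10), with enrichments of 10.1-, 4.14-, 5.96- and 7.94-fold. In 3 KO libraries it was a peak nearest to KIF2B (chromosome 17, 53106169 to 53106522 in C12, 15.9-fold), and in S36 one within MAPT. The mean log10 distance in bp was 6.58 ± 0.114 in KO and 5.79 ± 2.46e-05 in WT (SD, n = 4 each; difference 0.796). The two-sided exact permutation p was 0.0286, the smallest that 70 assignments can give, and 0.114 after Benjamini-Hochberg adjustment over the 4 clusters, so it did not pass. The ZNF652 peak is also in the authors' combined and WT-only lists, so those lists add no independent evidence, and it did not overlap H3K27ac. Among peaks with a −log10 q of 5 or more WT13 lost it, and the unadjusted exact permutation p was 0.143.

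For HOXC the nearest peak was 12114 kb (C12), 8205 kb (C15), 12575 kb (S04) and 8205 kb (S36) away in KO libraries. It was 1276 kb away in WT10, WT28 and WT30 and 12002 kb in WT13. The 3 close WT values were a peak nearest to the keratin gene KRT2 (chromosome 12, 52662368 to 52662751 in WT10, 7.51-fold), which overlapped an H3K27ac peak. WT13 lay within the KO range. The difference in mean log10 distance was 0.653 (exact permutation p = 0.0857, two-sided, n = 4 each; 0.171 after adjustment).

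At HOXA and HOXD the groups overlapped. The nearest peak to HOXA was 5792 to 18052 kb away in KO and 2138 to 18052 kb away in WT libraries. C15, S04, WT13 and WT30 had the same site, nearest to RAMP3. The nearest peak to HOXD was 2349 kb away in 3 of 4 KO libraries and in 2 of 4 WT libraries, at a site nearest to SP3. C15 had none closer than 27205.5 kb. The mean log10 distance differed by 0.0119 at HOXA (exact permutation p = 0.914, n = 4 each) and by 0.228 at HOXD (exact permutation p = 0.486, n = 4 each), with adjusted values of 0.914 and 0.648. Distances of this size describe how sparse the peaks are on these chromosomes and say nothing of regulation of a HOX gene.

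**Figure D5:**
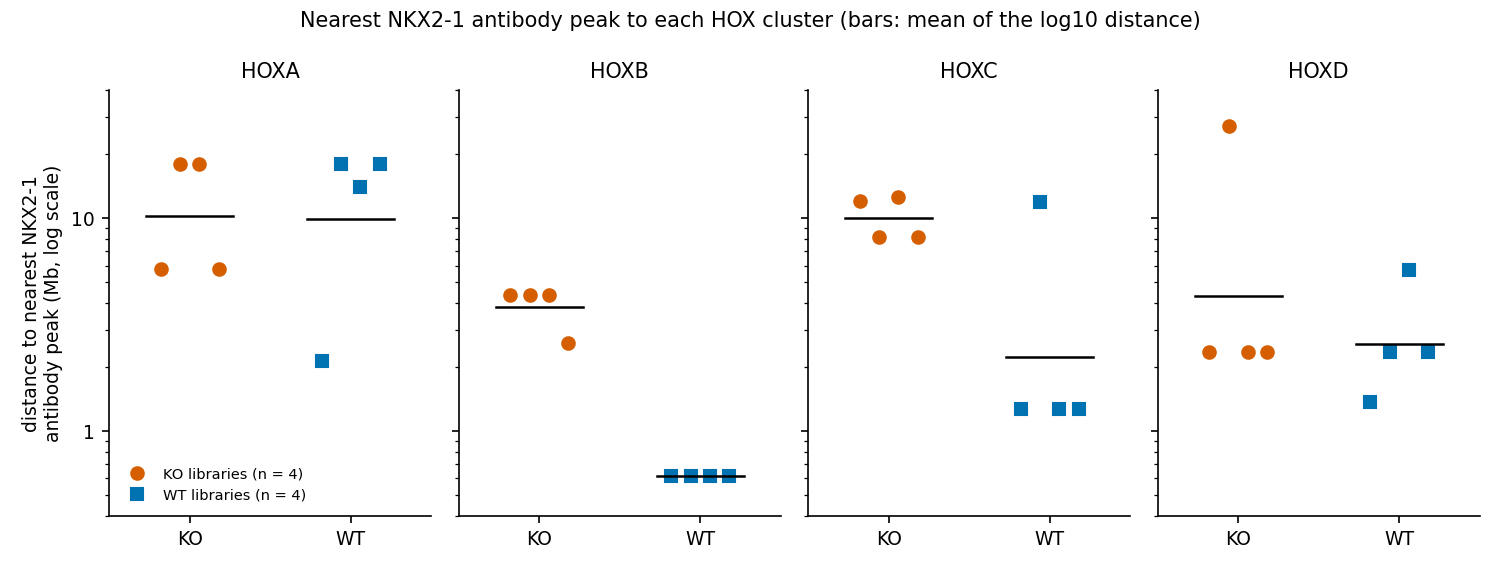
Distance from each HOX cluster span to the nearest NKX2-1 antibody peak (vertical axis, Mb, log scale) in the 4 KO libraries (circles) and 4 WT libraries (squares), with bars at the mean of the log10 distance. At HOXB the 4 WT libraries lie together at 613 kb, below the KO libraries at 2587 to 4377 kb, and in the other clusters the groups overlap.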

How the data were processed

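Chromatin of RPMI-8402 cells was fixed, sonicated and immunoprecipitated, per the labels' protocols. Per the submitters' processing notes the genome build was hg38, and the tools named are Bowtie2, MACS2, SAMtools, deepTools and FastQC. Their versions, settings and any control library are not given in the sources used here. Peak lists were deposited holding a fold ratio at the summit, a −log10 q-value, a −log10 p-value (not used) and a score (not used), with 1 list per sample, plus a combined list and a WT-only list by the authors. Chromosomes 1 to 22, X and Y were used, with 1-based coordinates. RefSeq gene bodies (GRCh38.p14) gave the windows. Peak counts, joined regions and distances were computed with Python 3.11.15, pandas 2.3.3 and scipy 1.17.1, and the peak finder and permutation test were tested on simulated data. Depth is unknown, so no interval on enrichment was possible. Tests were two-sided exact permutations over 8 libraries. Members, lists and tests were chosen with earlier results of these data known. In each cluster the values given in full are those of the member with the strongest peak and of each member with a peak over its body; members named at the window limit were chosen after their values were seen. Of each other gene list the 3 with the strongest peak over the body are named. KMT2A, EZH2, SUZ12, EED, MEIS1, PBX3, EZH1, BMI1, RNF2, MEN1, MLLT3 and KAT6A were added after their values were seen.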

Additional observations from a re-analysis of the deposited data

Results flagged for a closer look

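In groups of 4 libraries, the distance from a HOX cluster to the nearest NKX2-1 antibody peak set a single library apart in 5 of 8 groups. The rule was Dixon's test at the 95% level on log10 distance, the gap to the nearest other library over the range of the group. Chance meets it in about 1 of 20 groups of independent values, a rate that does not hold here because libraries share sites and their values are nearly tied. At HOXA, WT10 was closest among WT libraries at 2138 kb. At HOXB, S36 was closest among KO libraries at 2587 kb. At HOXC, WT13 was farthest among WT libraries at 12002 kb. At HOXD, C15 was farthest among KO libraries at 27205.5 kb. WT10 also stood apart at HOXB, at 613 kb, although the 4 WT libraries had the same site within ZNF652 and differed only in where the edge of the peak was called. WT10 has the most peaks of the 8 libraries (1144). The part of peak number in these distances was not tested.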

How the results depend on the processing

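The number of HOX genes with an H3K27ac peak depended on the window and on peak strength. It was 3 in the gene body alone, 13 with 20 kb and 19 with 50 kb to each side, where 44.8% of all genes had a peak. It was 3 at a −log10 q of 5 or more and 2 at 10 or more, when 6.17% of all genes had a peak. At both q limits the HOXA span held 0 peaks and 0 kb, and at the limit of 10 the HOXB span held 1 peak and 0.857 kb. The HOXA peak had a −log10 q of 4.92, the median of all H3K27ac peaks and just below the limit of 5. The genes lost at that limit were HOXA3, HOXA5, HOXA6 and HOXA7, which all rested on this single peak. HOXC and HOXD stayed at 0 under each limit and with 10 kb added to the spans. The count of HOX genes with an NKX2-1 antibody peak was 0 with 50 kb to each side, beside 5.61% of all genes, and with 100 kb, beside 9.02%. Narrower windows, stricter limits and leaving out a library can only give 0 again and bear on nothing. The KO minus WT difference in distance changed sign at HOXD at a −log10 q of 5 or more (−0.0380 in log10 bp) and at HOXA as a mean in kb (−1154 kb). With each library left out in turn it ran from −0.211 to 0.0982 at HOXA, from 0.777 to 0.853 at HOXB, from 0.572 to 0.897 at HOXC and from −0.0380 to 0.344 at HOXD, and no adjusted p passed 0.05. At HOXA the sign changed without C15, S04 or WT10, and at HOXD without C15; the cause was not tested. No paired analysis was possible because the clones of the 2 groups share no number. Read depth, which the files do not give, limits every statement that no peak was called.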

Other observations

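Of the 16 protein-coding genes nearest to the 4 clusters, 2 on each side, 4 had an H3K27ac peak in the body or within 10 kb, beside 29.0% of all protein-coding genes, so the count lies near the background. All 4 flank HOXC or HOXD. CBX5, which encodes heterochromatin protein HP1 alpha, lies beyond HOXC4 with a peak of 12.8-fold enrichment (chromosome 12, 54280400 to 54281878). ATP5MC2, an ATP synthase subunit gene, had one of 6.39-fold on the HOXC13 side. Beyond HOXD1, MTX2, a mitochondrial outer membrane gene, had a peak of 5.45-fold and HNRNPA3 one of 11.6-fold.

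The nearest genes on both sides of HOXA and HOXB had none. SKAP2 and SNX10 on one side of HOXA and EVX1 and HIBADH on the other had 0 peaks within 10 kb, and so did SKAP1, SNX11, TTLL6 and CALCOCO2 around HOXB. The nearest H3K27ac peak outside the HOXA span was 897.5 kb away on the low-coordinate side, within CBX3, and 3394 kb away on the high-coordinate side, within GARS1. Around HOXB it was 50.5 kb away on the HOXB1 side and 180.1 kb away on the HOXB13 side.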
